A study of Mus musculus with 18 samples.

Results

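Unstimulated RAW cells, an established mouse macrophage-like line grown in DMEM, were compared after 22 h in medium alone with the same line at the start of the experiment. The members are 3 of the 18 Affymetrix arrays of the series, taken by their titles: 1 array of medium at 22 h and 2 arrays of medium at 0 h. The series also holds 1 array of medium at each of 1, 3 and 7 h, which carry the course between both ends, and arrays of cells given R848 alone, R848 with apilimod or R848 with API09 at 1, 3, 7 and 22 h. R848 is an agonist of the endosomal nucleic acid receptor Tlr7, apilimod inhibits the lipid kinase Pikfyve, and API09 is described as its inactive analog. Of these, the R848 array and the R848+API09 array at 22 h are set beside the medium culture of the same hour. The labels give R848 at 0.1 mM and each compound at 1 uM; whether mM is the unit meant for R848 could not be checked. No agent is named for the medium arms. The labels do not say how dense the cultures were, whether the medium was renewed, or whether arrays came from separate cultures, so the p-values cover variation from array to array, and that variation may be technical. All arms are the same cell line, and each hour after the start is 1 array.

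A culture left in the same dish draws on the nutrients and growth factors of its medium while its cells divide and crowd. Mammalian cells read a shortage of amino acids through the kinase Gcn2, which favours translation of the transcription factor Atf4, and Atf4 drives genes for amino acid synthesis, amino acid import, transfer RNA charging and redox balance. Weak growth factor signalling lets FoxO factors into the nucleus, where they act on genes that hold back the cell cycle, while strong signalling switches on immediate-early genes such as Fos, Egr1 and Myc. These are textbook accounts of the pathways and not results of these arrays.

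The gene start regions below are shown because they belong to 2 gene lists that moved over the day and hold the recognition letters of 2 different factors. TGATGNAA, where N is any base, is the core of the element that Atf4 binds with a C/EBP partner. It was found on either strand in 10 of the 31 RefSeq windows of the ATF4 list (32.3%), against 3.97% of 32851 windows of all genes, each window running from 250 bases before to 50 bases after a start. The 31 windows belong to 28 of the 33 listed genes. TGACNNNGC, the core of the antioxidant response element that the factor Nrf2 binds, was found in 8 of the 25 windows of the NRF2 target list (32.0%), against 12.4% of all windows. Neither motif contains the other, and a match is a description of letters, not a shown binding site. Both lists were drawn up as genes of the factor in question. A higher share of its motif may therefore come from how the list was made, and is not a result of these arrays. The 250 bases before the start, from RefSeq on GRCm38.p6, lie upstream of each transcript and are written 5′ to 3′ on the gene's own strand, with the motif on either strand in capitals. Chac1, Asns, Nupr1 and Slc7a11 belong to the ATF4 list and Gclm and Txnrd1 to the NRF2 list; Slc7a11 stands on both.
Chac1 (chr2:119350992-119351241, plus strand): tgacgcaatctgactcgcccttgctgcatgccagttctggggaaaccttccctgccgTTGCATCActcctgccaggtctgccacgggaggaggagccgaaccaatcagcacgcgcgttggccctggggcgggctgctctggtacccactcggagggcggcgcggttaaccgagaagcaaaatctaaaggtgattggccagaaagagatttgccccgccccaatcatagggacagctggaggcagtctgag
Asns (chr6:7693210-7693459, minus strand): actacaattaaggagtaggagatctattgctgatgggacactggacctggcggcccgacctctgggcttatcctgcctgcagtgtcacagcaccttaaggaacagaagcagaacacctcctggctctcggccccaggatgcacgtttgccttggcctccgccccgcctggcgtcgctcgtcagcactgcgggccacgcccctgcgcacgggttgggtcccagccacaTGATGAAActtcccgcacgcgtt
Nupr1 (chr7:126625471-126625720, minus strand): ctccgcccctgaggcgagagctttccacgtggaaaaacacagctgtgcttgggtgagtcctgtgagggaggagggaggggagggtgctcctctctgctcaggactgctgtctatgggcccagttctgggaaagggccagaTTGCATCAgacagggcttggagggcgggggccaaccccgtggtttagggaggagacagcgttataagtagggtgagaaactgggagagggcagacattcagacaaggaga
Slc7a11 (chr3:50443614-50443863, minus strand): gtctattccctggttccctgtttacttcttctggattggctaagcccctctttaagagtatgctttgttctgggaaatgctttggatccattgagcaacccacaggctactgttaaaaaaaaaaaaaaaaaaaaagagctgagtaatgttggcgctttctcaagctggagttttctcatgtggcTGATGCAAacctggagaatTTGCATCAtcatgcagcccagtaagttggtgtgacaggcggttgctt
Gclm (chr3:122245307-122245556, plus strand): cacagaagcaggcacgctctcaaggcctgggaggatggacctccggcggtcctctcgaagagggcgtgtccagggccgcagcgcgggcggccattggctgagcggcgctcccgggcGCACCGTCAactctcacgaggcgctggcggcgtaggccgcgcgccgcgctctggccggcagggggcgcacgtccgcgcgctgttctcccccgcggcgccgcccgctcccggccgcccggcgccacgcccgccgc
Txnrd1 (chr10:82858956-82859205, plus strand): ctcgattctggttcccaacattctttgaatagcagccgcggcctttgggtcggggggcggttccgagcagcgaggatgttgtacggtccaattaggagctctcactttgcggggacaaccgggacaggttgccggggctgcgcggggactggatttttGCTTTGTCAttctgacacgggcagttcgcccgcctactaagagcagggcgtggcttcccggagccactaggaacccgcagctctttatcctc
Chac1, Nupr1 and both NRF2 list genes carry the motif on the opposite strand, Asns on the gene's strand, and Slc7a11 carries it once on each strand.

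The arrays give intensities on a linear scale, with medians of 17.5 to 19.2 over the 18 arrays, and were tested as log2(intensity + 16). The 8 macrophage markers were all tested and summed to 43660 at 22 h, against 47400 and 47763 at 0 h. Itgam was the only one of them that rose and Spi1 the only one that fell. Marker sums of 6 other cell types lay between 55.9 and 110.0 at 22 h, against 51.5 to 117.5 at 0 h, and none of their tested markers passed the test. The medium 22 h array had an 18S signal of 7.94 on the log2 scale, against 8.52 to 9.36 on the other 5 medium arrays, and an Actb ratio of 3′ to 5′ probe sets of 0.34 on the log2 scale, against 0.23 to 0.25. Both measures move with the 22 h array, and their part in the results was not tested. In RNA from a whole culture, fewer cells of a kind and less RNA per cell cannot be told apart. Whether the arrays were processed in batches is not given in the sources used here, so with 1 array at 22 h the hour and its handling cannot be told apart.

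A day in medium alone was followed by a change of about the same number of genes in each direction. Of 12257 genes tested, 1369 were higher (11.2%) and 1327 lower (10.8%) at 22 h than at 0 h at an adjusted p of 0.05, 22% in all, and 87 of the higher and 69 of the lower genes differed by at least 1 on the log2 scale. The spread came from the pair of 0 h arrays and from the R848 and R848+API09 arrays of each hour, and the lone 22 h array was taken to vary like them. The count depended on these arrays: it was 4315 without the R848+API09 array at 22 h, and 1426 and 1373 without the first or the second 0 h array. The median absolute log2 difference from the 0 h mean was 0.072 on the 1 h array, 0.079 at 3 h, 0.087 at 7 h and 0.162 at 22 h. Both 0 h arrays differed from each other by a median of 0.055. R848 and R848+API09 differed by a median of 0.171 at 22 h, as far as the medium 22 h array lay from 0 h, but only 6 genes of that pair differed by at least 1, against 156 genes for medium at 22 h over 0 h. That pair holds the array with the lowest upper quartile, R848+API09 at 22 h, at 87.0 where the other 17 arrays had 100.9 to 118.6. The same array had the highest 18S signal of the series, 10.53 on the log2 scale. Its Actb ratio of 3′ to 5′ probe sets, 0.49 on the log2 scale, was the highest as well. Against the 7 h array the 22 h array had 911 genes higher (7.43%) and 749 lower (6.11%), 13.5% in all. The earlier arrays held few genes at least 1 from the 0 h mean: 15 at 1 h, 20 at 3 h and 6 at 7 h.

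**Figure D1:**
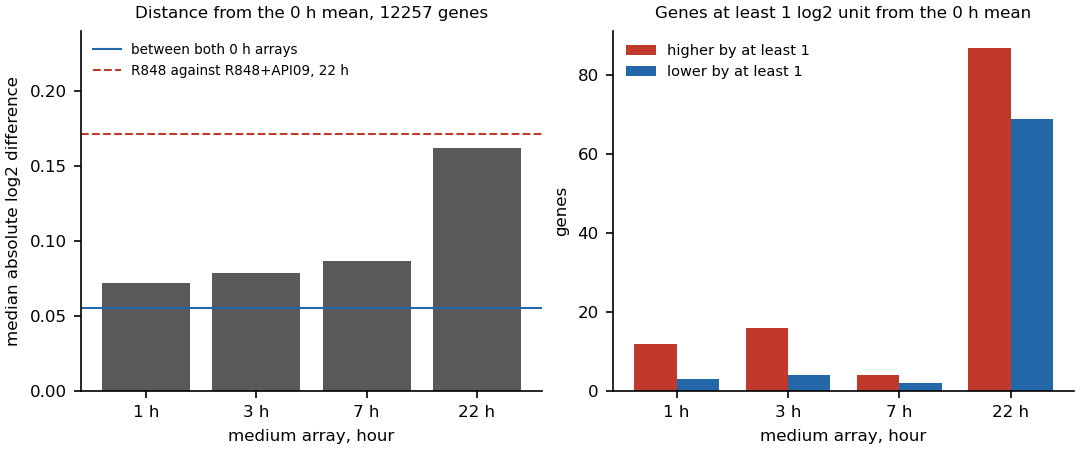
Left, the median absolute log2 difference of each medium array from the mean of both 0 h arrays over the 12257 genes tested; the solid line is the difference between both 0 h arrays (0.055) and the dashed line that between R848 and R848+API09 at 22 h (0.171). Right, the number of genes at least 1 log2 unit above or below the 0 h mean on each array, 87 and 69 at 22 h.

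**Figure D2:**
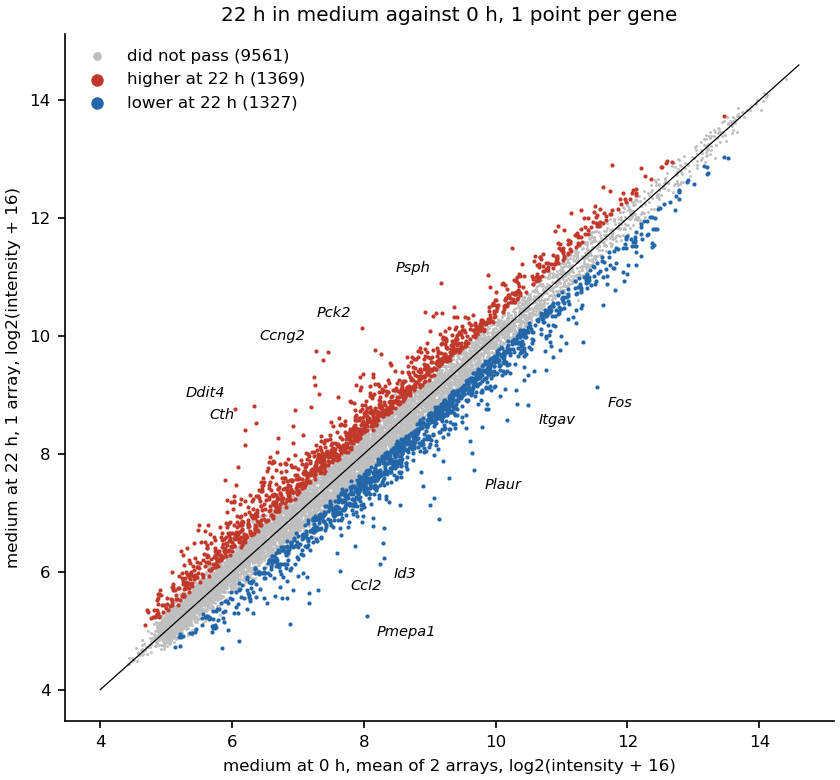
Each gene's level after 22 h in medium (vertical axis, 1 array) against its mean level at 0 h (horizontal axis, 2 arrays), both as log2(intensity + 16). Red points are the 1369 genes that were higher at 22 h and blue points the 1327 that were lower at an adjusted p of 0.05; grey points did not pass, and the line marks equal levels.

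Genes of the response to amino acid shortage rose together. Of the 29 tested genes of the ATF4 list, 26 rose and none fell, with a median difference of 0.85 on the log2 scale, against 0.01 over all genes, and 27 of the 29 were above every earlier medium array, where 33.7% of all genes were. Over all genes 11.2% rose and 10.8% fell. With either 0 h array left out 24 genes of the ATF4 list rose. The largest change was in Ddit4, which encodes an inhibitor of the growth kinase complex mTORC1: it had an intensity of 420.1 at 22 h, against 46.4 and 54.3 on the 0 h arrays, a log2 difference of 2.72 ± 0.17, adjusted p = 4.47e-06 (SE of the fit, also below). Its 1, 3 and 7 h arrays read 26.8, 59.3 and 53.4, so that 22 h stood alone. Chac1, an enzyme that breaks down glutathione, reached 432 at 22 h, against 74.0 and 55.4 at 0 h (2.48 ± 0.14, adjusted p = 3.28e-06). The hours between were uneven for Chac1, with 109, 185 and 69.6 at 1, 3 and 7 h, the 3 h array being the highest before 22 h. Trib3, a pseudokinase that restrains Atf4 signalling, read 563 at 22 h, against 142 and 132 at 0 h (1.92 ± 0.14, adjusted p = 1.50e-05), and its 7 h array was the lowest of the medium course at 65.3.

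The 3 enzymes of serine synthesis, all on this list, rose. Psph, which carries out the last step, read 1897 at 22 h, against 587 and 531 at 0 h (1.74 ± 0.09, adjusted p = 1.83e-06), and climbed over the later medium arrays with 555, 659 and 815 at 1, 3 and 7 h. The earlier steps had smaller differences, 0.90 ± 0.09 for Psat1 (adjusted p = 7.61e-05) and 0.85 ± 0.09 for Phgdh (adjusted p = 0.000109). Psat1, Phgdh and the further members named in this and the next paragraph were chosen after their values were seen. Asns, which makes asparagine, had 2853 at 22 h, against 1181 and 1221 at 0 h (1.24 ± 0.09, adjusted p = 1.40e-05), with 1218, 1580.2 and 1584 between. Aldh18a1, which starts proline synthesis, differed by 0.95 ± 0.09 and the mitochondrial folate enzyme Mthfd2 by 0.93 ± 0.11. Genes that charge transfer RNA had smaller rises, 0.60 ± 0.11 for the alanine enzyme Aars and 0.66 ± 0.09 for the asparagine enzyme Nars, and the tryptophan enzyme Wars did not pass (0.17 ± 0.09, adjusted p = 0.236).

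Among the transcription factors, Atf4 itself read 3709.7 at 22 h, against 1966 and 1950.4 at 0 h (0.92 ± 0.09, adjusted p = 7.58e-05). Ddit3, the stress factor also called Chop, had 558 at 22 h, against 220.5 and 219 at 0 h (1.28 ± 0.13, adjusted p = 8.54e-05), and lay below its 0 h level on the 7 h array at 146. Nupr1 read 640.2 at 22 h, against 235 and 240.4 at 0 h (1.37 ± 0.12, adjusted p = 3.67e-05). Of the amino acid transporters, Slc7a11, which imports cystine, read 152 at 22 h, against 68.8 and 68.8 at 0 h (0.98 ± 0.11, adjusted p = 0.000187). It did not pass when all 5 earlier medium arrays served as the baseline (0.65, adjusted p = 0.0809), and its 3 h array read 145. Slc3a2 and Slc7a5, the subunits of the large neutral amino acid transporter, differed by 0.45 ± 0.09 (adjusted p = 0.00599) and 0.41 ± 0.11 (adjusted p = 0.0221). The glutamine transporter Slc38a2 did not pass (-0.05 ± 0.10, adjusted p = 0.774), nor did the factor Cebpb (-0.09 ± 0.11, adjusted p = 0.633). Against the 7 h array 22 of the 29 genes were higher and none lower.

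Other enzymes of amino acid metabolism, not on that list, were among the 15 largest rises. Cth, which makes cysteine from cystathionine, had 322 at 22 h, against 60.9 and 53.4 at 0 h (2.21 ± 0.09, adjusted p = 4.99e-07), and 54.1, 50.5 and 64.4 at 1, 3 and 7 h, so the 6 medium arrays split into 22 h and all others. Pck2, the mitochondrial enzyme that makes phosphoenolpyruvate, had 1106 at 22 h, against 246 and 222 at 0 h (2.17 ± 0.10, adjusted p = 8.58e-07). Aldh1l2, a mitochondrial folate enzyme, had 354 at 22 h, against 71.1 and 62.4 at 0 h (2.16 ± 0.12, adjusted p = 2.04e-06). Gpt2, the mitochondrial alanine transaminase, had 415 at 22 h, against 113 and 103 at 0 h (1.80 ± 0.10, adjusted p = 2.04e-06). In all 3 of these the 7 h value was the highest before 22 h. The 15 rises were chosen among genes above every earlier medium array at 22 h, so that position was fixed by the choice.

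**Figure D3:**
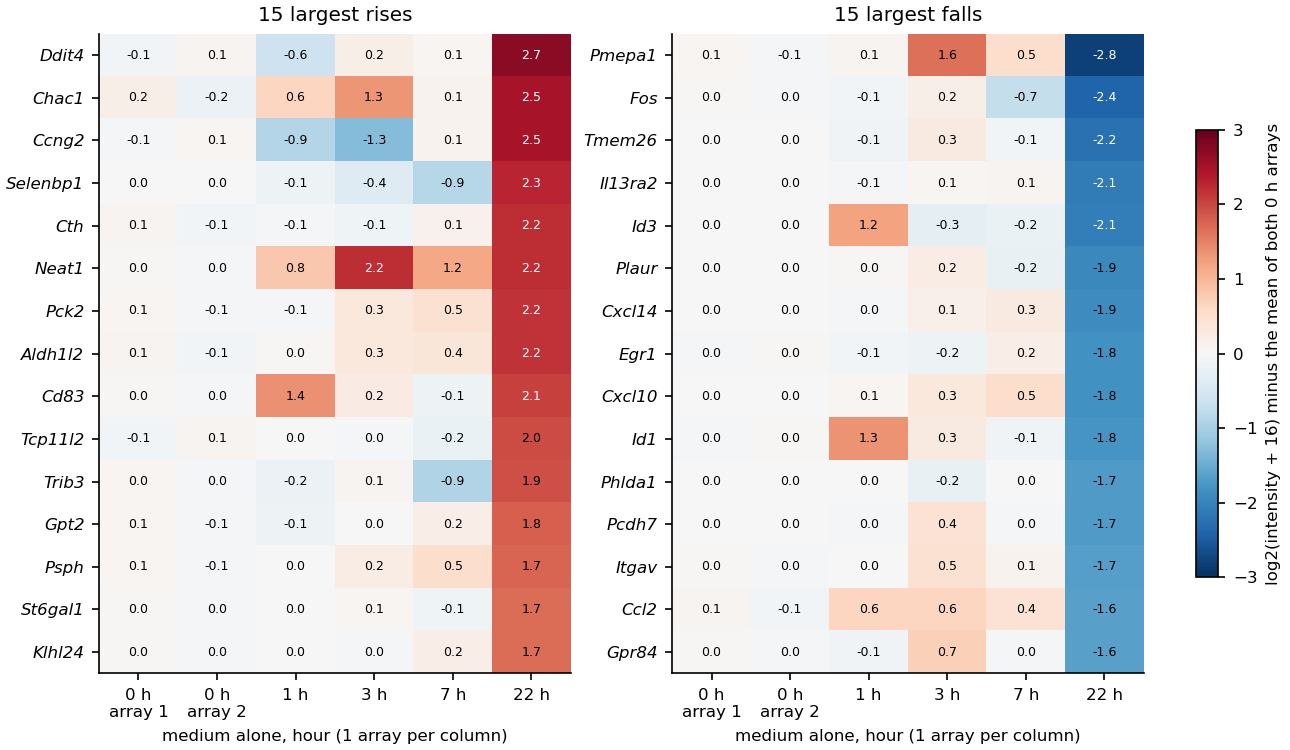
Log2(intensity + 16) of the 15 genes with the largest rises (left) and falls (right) on each medium array, minus the mean of both 0 h arrays; columns are the 2 arrays at 0 h and 1 array each at 1, 3, 7 and 22 h, and red is higher, blue lower. The genes were chosen among those with a 22 h value outside the range of all earlier medium arrays. A distinct 22 h column was therefore fixed by the choice. Neat1 at 3 h was about as high as at 22 h.

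The list of cell cycle inhibitors and FoxO target genes rose in part: 10 of 18 tested genes were higher and 2 lower, with a median difference of 0.41. The shares over all genes tested were 11.2% higher and 10.8% lower. Ccng2, cyclin G2, which is linked to cell cycle arrest, reached 839 at 22 h, against 131 and 145 at 0 h (2.47 ± 0.13, adjusted p = 2.04e-06). It read 67.4, 46.5 and 151 at 1, 3 and 7 h, below both 0 h arrays at 1 and 3 h. Tsc22d3, a glucocorticoid- and FoxO-responsive factor, had 161 at 22 h, against 51.6 and 50.2 at 0 h (1.40 ± 0.11, adjusted p = 1.63e-05). Cdkn1b, the cyclin-dependent kinase inhibitor p27, had 546 at 22 h, against 237 and 227 at 0 h (1.18 ± 0.09, adjusted p = 1.82e-05), and Sesn1, an inhibitor of mTORC1, differed by 0.88 ± 0.11 (adjusted p = 0.000358). The 2 that fell were the repressor Bcl6 (-0.78 ± 0.09, adjusted p = 0.000307) and the arrestin-domain gene Arrdc3 (-0.47 ± 0.13, adjusted p = 0.0234). Txnip, which slows glucose uptake, did not pass: it had 2177 at 22 h, against 1934 and 1951 at 0 h (0.16 ± 0.09, adjusted p = 0.252), but its 3 and 7 h arrays were low at 1263 and 1314.

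Of 12 tested p53 target genes, 4 rose and 2 fell, where 11.2% of all genes rose and 10.8% fell. The cell death gene Bbc3 had 201 at 22 h, against 76.7 and 78.4 at 0 h (1.21 ± 0.12, adjusted p = 7.73e-05). Sesn2, which is also on the ATF4 list, differed by 1.11 ± 0.11, Trp53inp1 by 1.10 ± 0.11 and the cell death gene Pmaip1 by 0.48 ± 0.09. The nuclease gene Aen (-0.66 ± 0.09, adjusted p = 0.000664) and Mdm2, the inhibitor of p53 (-0.55 ± 0.13, adjusted p = 0.0104), fell. The list held changes in both directions, and Cdkn1a, a defining p53 target, did not pass (-0.17 ± 0.09, adjusted p = 0.233).

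Genes of the hypoxia response were higher in part, 7 of 19 tested, with 2 lower and a median of 0.23. Over all genes 11.2% were higher and 10.8% lower. Ndrg1 had 1339 at 22 h, against 445 and 503 at 0 h (1.47 ± 0.11, adjusted p = 1.57e-05), with 427, 269 and 169.7 at 1, 3 and 7 h. Ero1a, which oxidises proteins in the endoplasmic reticulum, had 2077 at 22 h, against 907 and 957 at 0 h (1.14 ± 0.09, adjusted p = 1.90e-05), Ankrd37 differed by 1.14 ± 0.16 and the peptide hormone gene Adm by 0.84 ± 0.15. The 2 that fell were the adenylate kinase Ak4 (-0.46 ± 0.09) and the glycolysis regulator Pfkfb3 (-0.36 ± 0.09), and neither passed with the 5 earlier medium arrays as the baseline. The arrays of 1, 3 and 7 h lay below both 0 h arrays in Ndrg1, Ero1a, Ankrd37 and Adm, and against the 7 h array 11 of the 19 genes were higher and none lower. Of 15 tested glycolysis genes 3 rose and 5 fell: the muscle and platelet phosphofructokinases Pfkm (0.60 ± 0.10) and Pfkp (0.59 ± 0.09) and the aldolase Aldoc (0.59 ± 0.10) were higher, while the lactate transporters Slc16a1 (-0.67 ± 0.09) and Slc16a3 (-0.56 ± 0.10), the glucose transporter Slc2a1 (-0.48 ± 0.09), the hexokinase Hk2 (-0.39 ± 0.09) and the liver phosphofructokinase Pfkl (-0.46 ± 0.11) were lower. With the 5 earlier medium arrays as the baseline 1 glycolysis gene was lower, and without the second 0 h array 3 were.

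The mitochondrial, lysosomal and autophagy lists had smaller differences. Of 25 tested oxidative phosphorylation genes 9 rose and none fell, with a median of 0.21, and 22 of the 25 were above all earlier medium arrays. The complex I subunit Ndufb8 differed by 0.51 ± 0.09, Ndufa1 by 0.50 ± 0.09 and Ndufv1 by 0.44 ± 0.09, and the synthase subunit Atp5o by 0.38 ± 0.09. With the mean over probe sets Ndufb8 did not pass (0.17, adjusted p = 0.158). These counts are sensitive to the spread: without the first or the second 0 h array 3 rose, without the R848+API09 array at 22 h 14 rose, and against the 7 h array 1 of the 25, Ndufa1, was higher (0.42 ± 0.10, adjusted p = 0.0213). Of 15 vacuolar ATPase genes, whose pump acidifies lysosomes, 6 rose and none fell, with Atp6v1d at 0.67 ± 0.09, Atp6v1f at 0.55 ± 0.10 and Atp6v1a at 0.50 ± 0.09. Leaving out either 0 h array gave 4 rises. Of 31 lysosomal genes 5 rose and 3 fell, near the 11.2% and 10.8% of all genes, led by the galactosidase Gla (0.78 ± 0.08, adjusted p = 0.000145). The protease Ctsh (0.56 ± 0.13), the hexosaminidase Hexa (0.53 ± 0.09), the sialidase Neu1 (0.42 ± 0.09) and Scarb2 (0.33 ± 0.09) rose by less, and the protease Ctsk (-0.50 ± 0.13), the glucuronidase Gusb (-0.36 ± 0.08) and the lipase Lipa (-0.32 ± 0.09) fell. Without the second 0 h array 2 rose and none fell, and without the R848+API09 array at 22 h 9 rose and 4 fell. Of 24 autophagy genes 6 rose and 1 fell, among them Map1lc3b (0.68 ± 0.09, adjusted p = 0.000504) and Map1lc3a (0.60 ± 0.10, adjusted p = 0.00191), which encode proteins of the autophagosome membrane, while Becn1 fell (-0.31 ± 0.09, adjusted p = 0.0328). Without the second 0 h array 3 rose and none fell, and without the R848+API09 array at 22 h 10 rose.

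**Figure D4:**
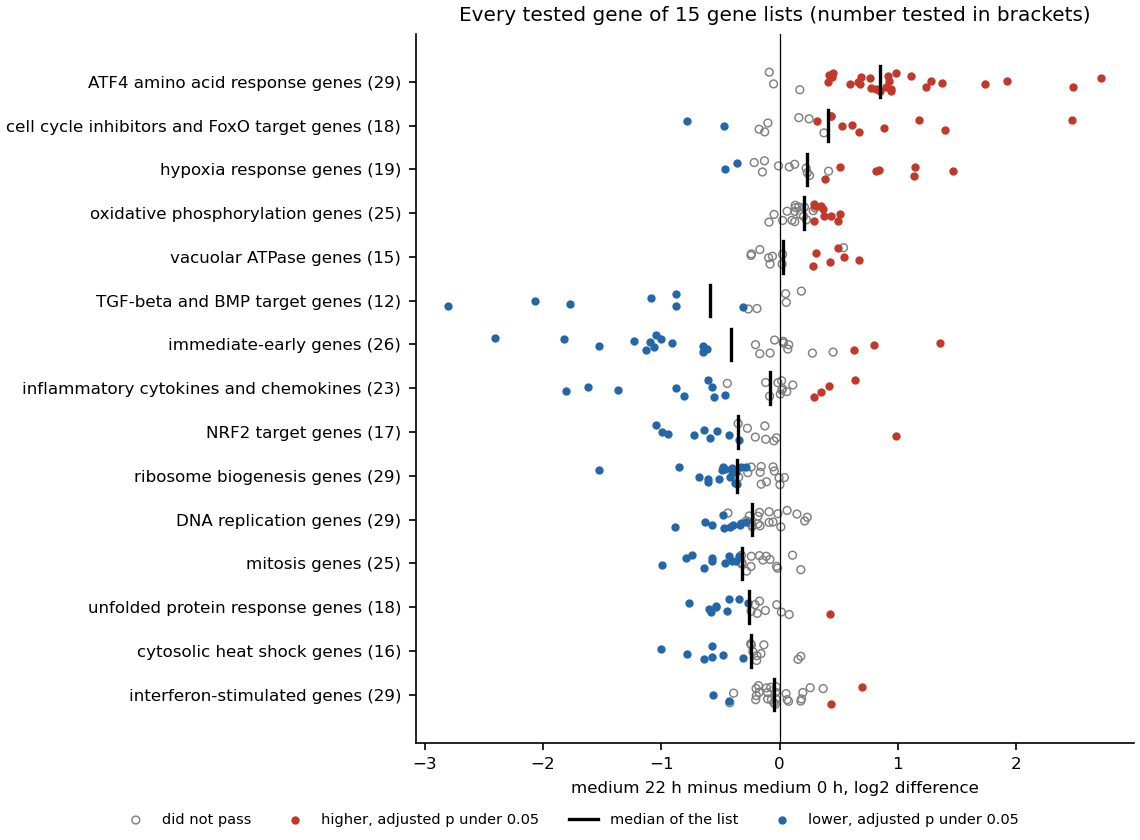
Log2 difference of medium at 22 h over medium at 0 h for every tested gene of 15 gene lists, 1 point per gene with its list's number of tested genes in brackets. Filled points passed an adjusted p of 0.05, red higher and blue lower, open points did not, and the black bar is the list's median, 0.85 for the ATF4 list and -0.59 for the TGF-beta and BMP list.

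Of the gene lists, that of targets of TGF-beta and BMP, growth factors that signal through SMAD proteins, had the lowest median. Of 12 tested genes of this list 7 fell and none rose, against 10.8% and 11.2% of all genes, with a median of -0.59. The 7 include the ligand Tgfb1 and the receptor Tgfbr1, while Smad6, Bambi and Ski did not pass. Pmepa1, a TGF-beta target that limits SMAD signalling, had 21.8 at 22 h, against 257 and 238 at 0 h (-2.80 ± 0.12, adjusted p = 4.99e-07), the largest fall of all genes tested. It had been higher between, with 262, 809 and 365 at 1, 3 and 7 h. Id3 and Id1, which block differentiation factors and are targets of BMP, peaked at 1 h before they fell. Id3 read 59.1 at 22 h, against 298 and 300.1 at 0 h (-2.07 ± 0.13, adjusted p = 4.83e-06), and 712 at 1 h. Id1 read 18.5 at 22 h, against 98.1 and 106 at 0 h (-1.77 ± 0.10, adjusted p = 3.28e-06), and 283 at 1 h. Id2 differed by -1.09 ± 0.11 (adjusted p = 9.04e-05), with 1390.3 at 1 h as its highest array. The ligand Tgfb1 itself had 465 at 22 h, against 870.2 and 858 at 0 h (-0.87 ± 0.10, adjusted p = 0.000187), whereas its receptor Tgfbr2 (0.05 ± 0.10, adjusted p = 0.78) and the inhibitor Smad7 (0.18 ± 0.13, adjusted p = 0.354) did not pass. The last 3 were chosen after their values were seen.

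Immediate-early genes, which serum and growth factors switch on, fell in 13 of 26 tested cases and rose in 3, with a median of -0.41. Among all genes tested 10.8% fell and 11.2% rose. Fos, a subunit of the factor AP-1, had 544 at 22 h, against 3010.3 and 2901 at 0 h (-2.41 ± 0.15, adjusted p = 5.95e-06), and 2806, 3359.6 and 1805 at 1, 3 and 7 h, the 7 h array being the lowest before 22 h. Egr1 had 136 at 22 h, against 506 and 536 at 0 h (-1.82 ± 0.12, adjusted p = 6.01e-06), with no earlier array under 464. Myc, which drives growth, had 34.0 at 22 h, against 130.2 and 125 at 0 h (-1.52 ± 0.14, adjusted p = 5.93e-05). The 3 that rose were the stress factor Atf3, with 614 at 22 h, against 219 and 242 at 0 h (1.36 ± 0.14, adjusted p = 0.000123), Klf4 (0.80 ± 0.15, adjusted p = 0.00367) and the antiproliferative gene Btg2 (0.63 ± 0.13, adjusted p = 0.00704). The factor Jun (0.28 ± 0.12, adjusted p = 0.144) and the nuclear receptor Nr4a1 (0.03 ± 0.14, adjusted p = 0.906) did not pass.

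Genes of growth and division were lower, by less, where 10.8% of all genes fell and 11.2% rose. Of 29 tested ribosome biogenesis genes 17 fell and none rose, with a median of -0.36, and 26 were below every earlier medium array, where 30% of all genes were. Apart from Myc, Tsr1 differed by -0.85 ± 0.10, Nop58 by -0.68 ± 0.11 and Nolc1 by -0.61 ± 0.13. Of 29 DNA replication genes 10 fell and none rose, with a median of -0.23: the licensing factor Cdc6 had 328 at 22 h, against 638 and 601 at 0 h (-0.89 ± 0.09, adjusted p = 0.000138), the helicase subunits Mcm4 and Mcm6 differed by -0.63 ± 0.11 and -0.57 ± 0.11, and the uracil glycosylase Ung by -0.47 ± 0.11. Of 25 mitosis genes 11 fell and none rose, with a median of -0.32. The proliferation marker Mki67 had 1003 at 22 h, against 1963 and 2055 at 0 h (-0.99 ± 0.13, adjusted p = 0.000544), the kinesins Cenpe and Kif23 differed by -0.79 ± 0.18 and -0.74 ± 0.14, and the mitotic kinase Plk1 by -0.63 ± 0.12. All 3 counts shrank when a 0 h array was left out: to 8 either way for ribosome biogenesis, to 4 and 6 without the first or the second array for DNA replication, and to 5 either way for mitosis. Without the R848+API09 array at 22 h they were 20, 16 and 16.

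NRF2 target genes, which serve antioxidant defence, fell in part: 9 of 17 tested fell and 1 rose, with a median of -0.35. The shares over all genes were 10.8% lower and 11.2% higher. The sulfiredoxin gene Srxn1 had 141 at 22 h, against 310.4 and 302 at 0 h (-1.04 ± 0.10, adjusted p = 6.20e-05). The thioredoxin reductase gene Txnrd1 had 1183 at 22 h, against 2382 and 2362 at 0 h (-0.99 ± 0.09, adjusted p = 4.56e-05), and Gclm, which makes glutathione, 358 at 22 h, against 707 and 701 at 0 h (-0.94 ± 0.12, adjusted p = 0.000423). In each of these 3 the 22 h array lay below all 5 earlier medium arrays. The 1 gene that rose was Slc7a11, described above, which is a member of both lists. Leaving out either 0 h array gave 6 falls.

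Chaperone lists were lower as well, where 10.8% of all genes fell and 11.2% rose. Of 18 unfolded protein response genes, which serve folding in the endoplasmic reticulum, 9 fell and 1 rose: Creld2 (-0.76 ± 0.11, adjusted p = 0.000937), Dnajb11 (-0.60 ± 0.09), Manf (-0.58 ± 0.10) and Syvn1 (-0.53 ± 0.12) fell most, and Derl1 (0.42 ± 0.09, adjusted p = 0.00819) rose. The master chaperone of that compartment, Hspa5, had 8387 at 22 h, against 11196 and 11325 at 0 h (-0.42 ± 0.08, adjusted p = 0.005), and the splicing target Xbp1 did not pass (0.02 ± 0.10, adjusted p = 0.937); both were chosen after their values were seen. Without the second 0 h array 5 fell. Of 16 cytosolic heat shock genes 7 fell and none rose, led by Hsph1 with 840.1 at 22 h, against 1705 and 1692 at 0 h (adjusted p = 0.000117), Hspa1b (-0.78 ± 0.14), Dnaja1 (-0.64 ± 0.11) and Hsp90aa1 (-0.57 ± 0.12). Hspa1b was already at 116 on the 1 h array and did not pass against all 5 earlier arrays (-0.56, adjusted p = 0.157).

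Inflammatory cytokines and chemokines fell in 9 of 23 tested genes and rose in 4, where 10.8% of all genes fell and 11.2% rose. Il6, Il12b, Il23a, Csf3, Ccl7 and Il1a read below 18.1, the median of all values, at both ends of the day. Il10, among the 4 that rose, was dim too, with 18.2 at 22 h against a mean of 9.6 at 0 h. Cxcl10, a chemokine for T cells, had 73.7 at 22 h, against 293 and 302 at 0 h (-1.81 ± 0.11, adjusted p = 4.39e-06). Ccl2, a chemokine for monocytes, had 48.6 at 22 h, against 194 and 171 at 0 h (-1.62 ± 0.13, adjusted p = 2.22e-05), and 295, 295 and 252 at 1, 3 and 7 h. Tnf had 93.9 at 22 h, against 264 and 269 at 0 h (-1.36 ± 0.11, adjusted p = 3.33e-05), and its highest array was 1 h at 422. All 3 were lower at 22 h than on any earlier medium array, which the rule for the 15 largest falls required of Cxcl10 and Ccl2. The 4 genes that rose, Il18 (0.63 ± 0.13, adjusted p = 0.00688), Il10 (0.42 ± 0.09, adjusted p = 0.00694), Cxcl1 (0.35 ± 0.11, adjusted p = 0.0372) and Ccl9 (0.29 ± 0.08, adjusted p = 0.0266), had smaller differences, and 1 and 2 genes rose without the first or the second 0 h array. Il1b did not pass, with 26.9 at 22 h, against 26.1 and 33.1 at 0 h (-0.08 ± 0.17, adjusted p = 0.785). Of 15 NF-kB response genes 6 fell and 1, Cd40 (0.52 ± 0.12, adjusted p = 0.00999), rose, led by the adhesion gene Icam1 (-0.70 ± 0.10, adjusted p = 0.000787) and the adaptor Traf1 (-0.68 ± 0.19, adjusted p = 0.028), and 2 and 3 genes fell without the first or the second 0 h array. Cd40 did not pass with the 5 earlier medium arrays as the baseline (0.32, adjusted p = 0.132), with the mean over probe sets (0.26, adjusted p = 0.0867) or without the second 0 h array (adjusted p = 0.0735).

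Of 29 interferon-stimulated genes, which defend against viruses, 2 rose and 2 fell between both ends of the day, where 22% of all genes passed, and the median was -0.05. Without the R848+API09 array at 22 h 4 rose and 4 fell, and without the first or the second 0 h array 0 and 1 fell. The 2 that rose were Stat2 (0.70 ± 0.15, adjusted p = 0.00736) and the protease Usp18 (0.44 ± 0.09, adjusted p = 0.00592), and the 2 that fell were Ifit1 (-0.56 ± 0.16, adjusted p = 0.0317) and Parp14 (-0.43 ± 0.10, adjusted p = 0.0123). The 7 h array was the highest for all 4, with 143 for Ifit1 and 2013 for Usp18, and against that array 12 of the 29 were lower at 22 h, with a median of -0.47. None of these 4 genes passed with the 5 earlier arrays as the baseline.

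RAW cells can turn into osteoclasts, the cells that resorb bone, and of 12 tested osteoclast genes 5 fell and none rose. Over all genes 10.8% fell and 11.2% rose. Without the R848+API09 array at 22 h, and likewise after quantile normalization, 3 rose and 5 fell. The osteoclast factor Nfatc1 had 280.2 at 22 h, against 761 and 771 at 0 h (-1.40 ± 0.21, adjusted p = 0.00116), and a peak of 1738 at 3 h. Tnfrsf11a, the receptor for the osteoclast cytokine RANKL, had 129.5 at 22 h, against 328 and 305 at 0 h (-1.19 ± 0.11, adjusted p = 7.44e-05). The fusion genes Dcstamp (-1.17 ± 0.27, adjusted p = 0.0118) and Ocstamp (-0.79 ± 0.12, adjusted p = 0.00138) fell too; Dcstamp did not pass with a pseudocount of 1 (adjusted p = 0.0774) or without the first 0 h array (adjusted p = 0.0502). The 5th was the protease Ctsk (-0.50 ± 0.13, adjusted p = 0.0212), which did not pass without the first or without the second 0 h array (adjusted p = 0.0994 and 0.0651). Of 10 matrix and plasminogen genes 3 fell and 1 rose: the urokinase receptor Plaur had 197 at 22 h, against 802 and 804 at 0 h (-1.94 ± 0.14, adjusted p = 1.15e-05), and its ligand urokinase, Plau, had 447 at 22 h, against 1222 and 1324 at 0 h (-1.48 ± 0.15, adjusted p = 0.000108). The receptor and its ligand were both lower at 22 h than on every earlier medium array. The matrix gene Tnc fell (-0.65 ± 0.14, adjusted p = 0.00711) and the inhibitor Timp2 rose (0.31 ± 0.09, adjusted p = 0.0366).

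Of 26 macrophage identity genes 5 rose and 5 fell. Over all genes 11.2% rose and 10.8% fell, which holds beside the other counts of this paragraph too. The scavenger receptors Msr1, with 659.7 at 22 h, against 1553 and 1487 at 0 h (-1.18 ± 0.10, adjusted p = 3.43e-05), and Cd36 (-0.86 ± 0.08, adjusted p = 7.06e-05) fell, as did the factors Cebpa (-0.69 ± 0.18) and Spi1 (-0.36 ± 0.09) and the co-receptor Cd14 (-0.46 ± 0.08). The Fc receptors Fcgr3 (0.89 ± 0.11, adjusted p = 0.000432) and Fcgr2b (0.36 ± 0.10), the integrin Itgam (0.71 ± 0.10, adjusted p = 0.000664), the factor Maf (0.54 ± 0.14) and the glucan receptor Clec7a (0.44 ± 0.11) rose. With either 0 h array left out 3 genes changed in each direction, and without the R848+API09 array at 22 h 8 fell. Among 13 Toll-like receptor genes 3 rose and 2 fell: Tlr4, the receptor for lipopolysaccharide, had 833 at 22 h, against 462 and 435 at 0 h (0.87 ± 0.11, adjusted p = 0.000424), Tlr1 rose by 0.46 ± 0.11 and Tlr13 by 0.32 ± 0.10, and the adaptor Myd88 (-0.41 ± 0.11) fell beside Cd14. Without the first or the second 0 h array 2 and 1 of the 13 rose and 1 fell, and without the R848+API09 array at 22 h 5 rose. Tlr7, the receptor that R848 engages in mouse cells, did not pass, with 659 at 22 h, against 597 and 607 at 0 h (0.13 ± 0.12, adjusted p = 0.524). Pikfyve, the target of apilimod, did not pass either (-0.09 ± 0.15, adjusted p = 0.741), nor did Actb (-0.19 ± 0.08, adjusted p = 0.14). Of 12 iron and metallothionein genes the transferrin receptor Tfrc, with 1462 at 22 h, against 3213 and 3081 at 0 h (-1.10 ± 0.09, adjusted p = 3.67e-05), and the metal exporter of phagosomes Slc11a1 (-0.94 ± 0.09, adjusted p = 6.11e-05) fell, and the metallothionein Mt2 rose (0.44 ± 0.09, adjusted p = 0.00639), though no gene of this list rose without the first 0 h array.

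Lipid genes did not move as a block, and their counts stand beside 11.2% of all genes that rose and 10.8% that fell. Of 17 genes of fatty acid oxidation and lipid storage 6 rose and 1 fell: the fatty acid binding genes Fabp4 (0.85 ± 0.16, adjusted p = 0.00391) and Fabp5 (0.63 ± 0.09, adjusted p = 0.00101) and the lipid droplet gene Hilpda (0.54 ± 0.11, adjusted p = 0.00531) were higher and Cd36, which also imports fatty acids, was lower. Of 20 cholesterol genes 4 rose and 2 fell, with Tm7sf2 (0.95 ± 0.15, adjusted p = 0.00166) and Hsd17b7 (-0.80 ± 0.11, adjusted p = 0.000767), enzymes of the same pathway, moving opposite ways. The enzymes Mvd (0.48 ± 0.12), Fdft1 (0.48 ± 0.09) and Nsdhl (0.41 ± 0.10) rose and Insig1, a brake on the pathway (-0.40 ± 0.12), fell. Of 15 fatty acid synthesis genes 3 rose and 3 fell: Acss2, which makes acetyl-CoA from acetate, had 194 at 22 h, against 77.8 and 75.3 at 0 h (1.18 ± 0.10, adjusted p = 2.66e-05), the desaturase Scd1 (0.92 ± 0.12, adjusted p = 0.000424) and the elongase Elovl5 (0.28 ± 0.09) rose, and the synthase Fasn (-0.78 ± 0.12, adjusted p = 0.00117), the malic enzyme Me1 (-0.64 ± 0.10) and the elongase Elovl1 (-0.54 ± 0.12) fell. Of 9 LXR targets Abcg1 (0.47 ± 0.09, adjusted p = 0.00501) rose and Lpl (-0.50 ± 0.09, adjusted p = 0.00216) fell, near the 11.2% and 10.8% of all genes, and 3 rose without the R848+API09 array at 22 h. With either 0 h array left out 4 genes of fatty acid oxidation and storage, 2 of cholesterol and 2 of fatty acid synthesis rose, and without the R848+API09 array at 22 h 4 cholesterol genes fell.

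The remaining lists were small and mixed, and their counts stand beside 11.2% of all genes that rose and 10.8% that fell. Of 13 prostaglandin and leukotriene genes 4 rose and 2 fell, with Alox5, which starts leukotriene synthesis (0.84 ± 0.15, adjusted p = 0.00287), higher and Ptgs2, the inducible cyclooxygenase (-1.02 ± 0.13, adjusted p = 0.000412), lower. Hpgd (0.63 ± 0.18), Ltc4s (0.52 ± 0.13) and Alox5ap (0.32 ± 0.08) rose and the prostaglandin receptor Ptger4 (-0.66 ± 0.16) fell. Without the first or the second 0 h array 2 and 1 of the 13 rose. Of 14 circadian clock genes 2 rose and 3 fell, led by Nfil3 (0.58 ± 0.12, adjusted p = 0.00607) and Clock (-0.56 ± 0.12, adjusted p = 0.00671). Dbp (0.42 ± 0.12) rose and Tef (-0.41 ± 0.09) and Nr1d1 (-0.41 ± 0.11) fell, and centring each array on its median gave 5 rises, as did leaving out the R848+API09 array at 22 h. Without the second 0 h array 1 rose and 1 fell, and Clock did not pass with the mean over probe sets (-0.20, adjusted p = 0.121). Of 15 antigen presentation genes 2 rose and 3 fell, with Cd74 (0.61 ± 0.09, adjusted p = 0.00128) and Psmb9 (0.38 ± 0.10) higher and the class II genes H2-Aa (-0.67 ± 0.15, adjusted p = 0.0109), H2-Ab1 (-0.51 ± 0.09) and H2-Eb1 (-0.36 ± 0.11) lower. With the filter at the 75th percentile none of the 11 genes then tested fell, H2-Aa being dim at 26.0 at 22 h, against 44.8 and 57.4 at 0 h. Of 7 complement genes Cfp rose (0.86 ± 0.10, adjusted p = 0.000315) and C3ar1 (-0.65 ± 0.12, adjusted p = 0.00367) and C5ar1 (-0.57 ± 0.17, adjusted p = 0.0358) fell. Of 7 genes of arginine, nitric oxide and itaconate metabolism Sat1 rose (0.63 ± 0.09, adjusted p = 0.000805), and Acod1, which makes itaconate (-0.73 ± 0.12, adjusted p = 0.0021), and Odc1, which starts polyamine synthesis (-0.51 ± 0.10, adjusted p = 0.00378), fell. Across all lists, 29 genes named above or below lost their call both without the first and without the second 0 h array: Alox5ap, Arrdc3, Atp5o, Becn1, C5ar1, Ccl9, Cebpa, Ctsk, Cxcl1, Dbp, Elovl5, Fcgr2b, Gas5, H2-Eb1, Hk2, Hpgd, Ifit1, Insig1, Lipa, Mvd, Myd88, Nsdhl, Psmb9, Scarb2, Slc7a5, Spi1, Timp2, Tlr13 and Traf1. With the mean over probe sets Atp5o, Cxcl1, Derl1, Fdft1, Pfkl, Pfkfb3, Scarb2, Tef, Parp14, Traf1, Becn1 and Timp2 did not pass either, and with the 5 earlier medium arrays as the baseline C3ar1, Insig1, Lipa, Mt2, Pmaip1, Ptger4, Slc7a5 and Tef did not.

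The other genes among the 15 largest changes in each direction have no list in common. Selenbp1, a methanethiol oxidase, had 837 at 22 h, against 158 and 162 at 0 h (2.28 ± 0.17, adjusted p = 1.43e-05), and its 7 h array was the lowest of the course at 80.6. Cd83, an activation marker of antigen-presenting cells, had 614 at 22 h, against 138 and 132 at 0 h (2.06 ± 0.14, adjusted p = 7.28e-06), after a first high value of 373 at 1 h. Neat1, the long non-coding RNA of paraspeckles, had 753 at 22 h, against 154 and 148 at 0 h (2.21 ± 0.17, adjusted p = 1.87e-05), but its 3 h array read the same, 753, and with the 5 earlier arrays as the baseline it did not pass (1.37, adjusted p = 0.0959). Tcp11l2 (1.95 ± 0.11), the sialyltransferase gene St6gal1 (1.69 ± 0.10) and Klhl24 (1.68 ± 0.16) completed the 15 rises. Il13ra2, a decoy receptor for interleukin 13, had 54.3 at 22 h, against 289.9 and 283 at 0 h (-2.10 ± 0.09, adjusted p = 4.99e-07), with a narrow 274 to 304 on the arrays between. Tmem26 had 103 at 22 h, against 554 and 537 at 0 h (-2.24 ± 0.12, adjusted p = 2.04e-06). The chemokine gene Cxcl14 (-1.88 ± 0.17), Phlda1 (-1.70 ± 0.09), the protocadherin gene Pcdh7 (-1.70 ± 0.13) and the integrin gene Itgav (-1.66 ± 0.10) fell as well. Gpr84, a receptor for medium-chain fatty acids, closed the 15 falls with 243 at 22 h, against 796 and 762 at 0 h (-1.62 ± 0.39, adjusted p = 0.0128). Its call did not hold without the first 0 h array (adjusted p = 0.0544) or with a variance trend and robust moderation (adjusted p = 0.0917). Of the 30 genes, 13 had other kept probe sets, 20 in all, and none of these differed in the opposite direction.

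Cells cultured for the same 22 h with R848, with or without API09, were then set against the medium culture of that hour, a comparison that shares the medium 22 h array with the one above. Of the 12257 genes, 2027 were higher (16.5%) and 3570 lower (29.1%) with R848 than in medium at 22 h, 45.7% in all. The split depends on scaling: it was 3244 higher and 2976 lower after quantile normalization and 4505 higher and 2319 lower after centring each array on its median, which shifted the median difference from -0.03 to 0.19. Of the 29 ATF4 list genes 7 were higher and 7 lower with R848, and 13 and 5 after centring. Pck2 read 1116 and 1105 with R848 and R848+API09 at 22 h, against 1106 in medium at 22 h (0.01 ± 0.10, adjusted p = 0.965), and Ddit4 read 355 and 295, against 420.1 in medium (-0.36 ± 0.17, adjusted p = 0.1), with a 95% interval of the difference from -0.73 to 0.01. Averaging a gene's probe sets turned the Pck2 difference to -0.50 (adjusted p = 0.00483). Psph read 1713 and 1728, against 1897 in medium (-0.14 ± 0.09, adjusted p = 0.224), and Trib3 739.8 and 659, against 563 (0.30 ± 0.14, adjusted p = 0.103); a p that misses the threshold does not show equal levels.

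Cth and Slc7a11, both of cysteine supply, were higher with R848. Cth read 1383 and 1328 with R848 and R848+API09, against 322 in medium at 22 h (2.02 ± 0.09, adjusted p = 4.97e-08), and Slc7a11 read 1327 and 1159, against 152 (2.91 ± 0.11, adjusted p = 8.73e-09). Other genes that rose in medium were lower with R848. Selenbp1 read 288 and 216, against 837 in medium (-1.68 ± 0.17, adjusted p = 1.72e-05), and St6gal1 read 157 and 140.3, against 499 (-1.65 ± 0.10, adjusted p = 4.71e-07), which with R848 is close to its 0 h values of 148 and 140.1. Cdkn1b read 308 and 282, against 546 (-0.86 ± 0.09, adjusted p = 2.88e-05).

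Of the genes that fell in medium, Fos read 513 and 367 with R848 and R848+API09, against 544 in medium at 22 h (-0.32 ± 0.15, adjusted p = 0.119), and Pmepa1 read 35.4 and 28.2, against 21.8 (0.33 ± 0.12, adjusted p = 0.0386), so both read below their 0 h values in all 3 cultures. The Pmepa1 call did not hold with the mean over probe sets (0.13, adjusted p = 0.278) or with either 0 h array left out (adjusted p = 0.0551). Cxcl10 read 61.5 and 52.0, against 73.7 (-0.31 ± 0.11, adjusted p = 0.0419). Its call was lost after centring (-0.08, adjusted p = 0.481), after quantile normalization (-0.10, adjusted p = 0.401), without the R848+API09 array (-0.21, adjusted p = 0.115) and with either 0 h array left out (adjusted p = 0.0655). Of the 12 TGF-beta and BMP targets 5 were higher and 4 lower with R848, with a median of 0.01, and 3 were higher with the mean over probe sets. Over all genes 16.5% were higher and 29.1% lower with R848. These shares also stand beside the counts of the NRF2 and mitosis lists below. Id3 read 404 and 319, against 59.1 in medium (2.32 ± 0.13, adjusted p = 2.56e-07), and Id1 116 and 106, against 18.5 (1.88 ± 0.10, adjusted p = 2.40e-07). Phlda1 read 610.1 and 627, against 28.2 (3.84 ± 0.09, adjusted p = 1.15e-10), and Ccl2 2066 and 1774, against 48.6 (4.90 ± 0.13, adjusted p = 5.23e-10). Tnf read 924 and 771, against 93.9 (2.97 ± 0.11, adjusted p = 1.06e-08), and Il1b, which did not pass over time in medium, 2949.8 and 2599, against 26.9 (6.02 ± 0.17, adjusted p = 6.69e-10). Tlr7, likewise without a call over time in medium, read 171 and 133, against 659 (-2.02 ± 0.12, adjusted p = 4.27e-07). The NRF2 list had 11 of 17 genes higher and 5 lower with R848 than in medium at 22 h, and 1 was lower after centring; Txnrd1 read 1818 and 1681, against 1183 (0.56 ± 0.09, adjusted p = 0.000404), and did not pass with the mean over probe sets (0.30, adjusted p = 0.0585). Mitosis genes were lower with R848 in 22 of 25 cases and higher in none, Mki67 with 728 and 625, against 1003 (-0.56 ± 0.13, adjusted p = 0.00511), and after centring 19 were lower.

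**Figure D5:**
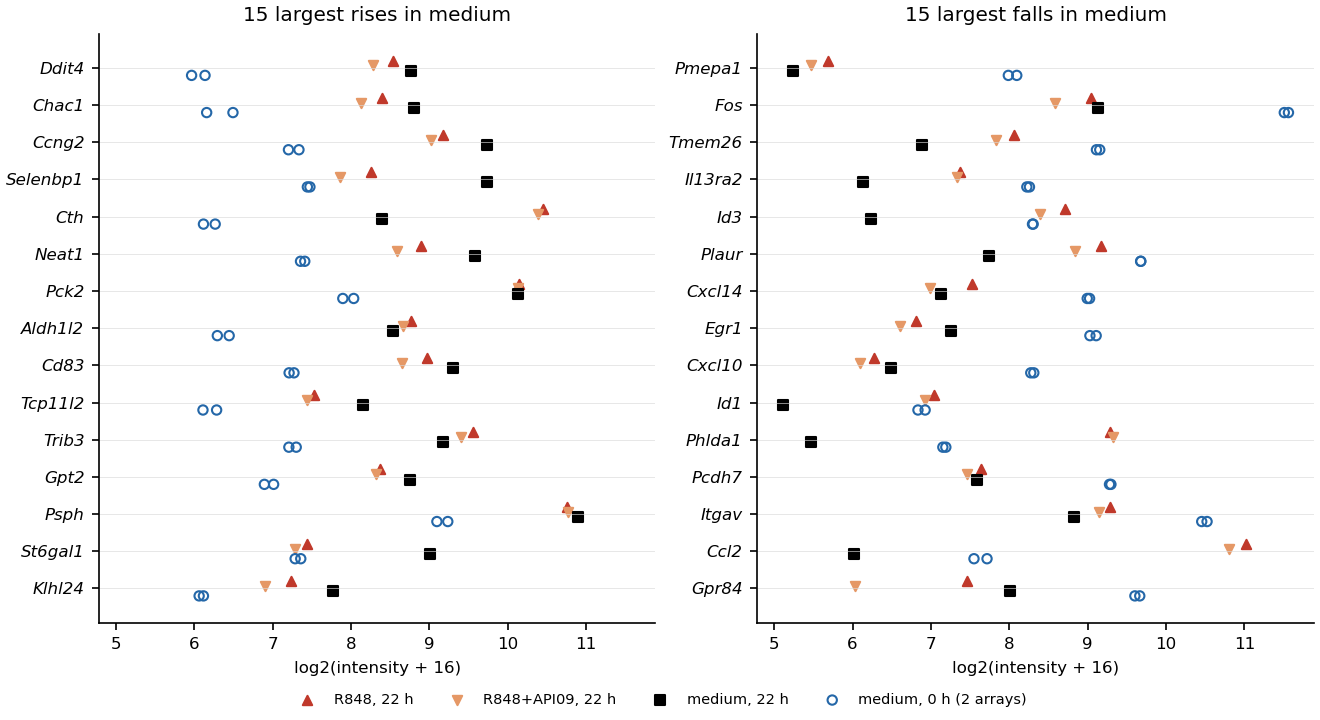
Levels, as log2(intensity + 16), of the 15 genes that rose most (left) and fell most (right) over 22 h in medium. Triangles are the single arrays of R848 and R848+API09 at 22 h, squares the single array of medium at 22 h and open circles the 2 arrays of medium at 0 h; Phlda1 and Ccl2 with R848 lie above both medium groups, and Fos and Pmepa1 lie near medium at 22 h.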

How the data were processed

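The authors deposited intensities on a linear scale for 45101 probe sets on 18 arrays, per the labels from RNeasy Plus RNA amplified with NuGEN Ovation V2; the submitters' processing notes name limma, with its version, and the summarisation, background correction and normalization, not given in the sources used here. The deposited values ran from 3.62 to 22099 and were kept as they are. Of the probe sets 34958 name 1 gene, 932 several and 9211 none. A probe set was kept where 3 or more arrays exceeded 18.1, the overall median (24192 probe sets), and each gene was represented by its brightest kept probe set (12257 genes). Log2(intensity + 16) was fitted with limma 3.58.1 in R 4.3.3 (lmFit, eBayes), with 1 mean per arm and hour, R848 and R848+API09 of an hour sharing a mean, and 5 residual degrees of freedom. P-values were two-sided and Benjamini-Hochberg adjusted over all genes, with a threshold of 0.05. A fold on the log2(value + 16) scale understates the change of dim genes. The number of arrays limits the precision. The script was tested on simulated data. Only the 0 h medium arrays carry replicate numbers.

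The genes named are the 15 largest rises and 15 largest falls among genes past the threshold whose 22 h value lay outside the range of the 5 earlier medium arrays, up to 4 members of each list by size of difference (all where a count is 5 or fewer), and Txnip, Tnf, Il1b, Tlr7, Pikfyve and Actb; Gapdh is not analysed here. Other genes, such as Cdkn1a, Jun and Nr4a1, were chosen after their values were seen. Members and lists were chosen with earlier results of these data known. Alternatives were another normalization, centring, filter, pseudocount, variance model, probe set rule, baseline and source of the spread, and each 0 h array left out. Sequences come from RefSeq promoter tables of GRCm38.p6. No reference genome was used.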

Additional observations from a re-analysis of the deposited data

How the results depend on the processing

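The count of genes past the threshold for medium at 22 h over 0 h (2696) was 156 with a minimum log2 difference of 1, 4315 without the R848+API09 array at 22 h, 5196 with only the medium arrays of 0 and 22 h in the fit, and 1373 to 1426 without 1 of the 0 h arrays. For 22 h over 7 h (1660) it was 2511 after quantile normalization, 168 with the minimum difference and 3330 without the R848+API09 array at 22 h. For R848 over medium at 22 h (5597) it was 860 with the minimum difference. All other alternatives kept these 3 counts within 1.5 times. The 30 genes with the largest changes kept their direction and their call in 417 of 420 values, and the 3 lost calls were those of Gpr84 and Neat1 described above. The 420 values include the 30 of the main fit itself, which are kept by definition. The 30 genes were chosen by the size of this same difference, and every alternative uses the same 22 h array. The share kept was therefore bound to be high and does not measure how firm the calls are. Of all 222 genes named for 22 h over 0 h, 39 and 45 lost their call without the first or the second 0 h array, and 23 with the 5 earlier medium arrays as the baseline. Averaging a gene's probe sets turned the sign of 4 differences of R848 over medium at 22 h, to -0.50 for Pck2, 0.34 for Pcdh7, -0.49 for Aldoc and -0.33 for Wipi2, and that of Gas5 for 22 h over 0 h, to -0.10 (adjusted p = 0.5); the cause was not tested. No paired analysis was possible because only the 0 h medium arrays carry replicate numbers. With 1 array at 22 h there is no measured spread at that hour in medium, and dim genes near the background have compressed differences.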

Other observations

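Host genes of small nucleolar RNAs, which carry those RNAs in their introns, formed a group that no list above holds and that was chosen after its values were seen. Of 13 tested Snhg genes 9 were higher and 1 lower at 22 h than at 0 h in medium, with a median log2 difference of 0.57. Among all genes tested 11.2% were higher and 10.8% lower. Snhg7 had an intensity of 140.4 at 22 h, against 52.8 and 45.9 at 0 h (1.26 ± 0.13, adjusted p = 9.27e-05), and Snhg8 had 714 at 22 h, against 328 and 320.2 at 0 h (1.10 ± 0.08, adjusted p = 1.54e-05). Of the related host genes, Zfas1 had 1076 at 22 h, against 492 and 503 at 0 h (1.09 ± 0.08, adjusted p = 1.63e-05), and Gas5 had 2698 at 22 h, against 2141 and 2193 at 0 h (0.31 ± 0.09, adjusted p = 0.0287), a call that either 0 h array left out or the mean over probe sets ended. Snhg3 was the 1 that fell, with 161 at 22 h, against 321 and 282 at 0 h (-0.84 ± 0.11, adjusted p = 0.000529). Snhg8 and Zfas1 were higher on the 3 and 7 h arrays than on both 0 h arrays, with 460 and 488 for Snhg8 and 559 and 625 for Zfas1.

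Ccnd1, cyclin D1, which carries growth factor signals to the cell cycle and is on no list above, had 941 at 22 h, against 2528 and 2550.4 at 0 h (-1.42 ± 0.13, adjusted p = 6.12e-05). Its 1, 3 and 7 h arrays read 2589, 2389.9 and 2060.3, so the 22 h array was the lowest of the 6 medium arrays. It too was chosen after its values were seen.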
